A study of Mus musculus and Sus scrofa with 30 samples.

Results

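The small leucine-rich proteoglycans examined here are 9 genes: Dcn (decorin), Bgn (biglycan), Aspn (asporin), Lum (lumican), Fmod (fibromodulin), Prelp, Omd (osteomodulin), Ogn (osteoglycin, also called mimecan) and Podn (podocan). They were chosen by symbol, ignoring case, in the 2 gene tables of the series, and each symbol had 1 row in each table. They are thus 9 of 24843 mouse genes and 9 of 34307 pig genes, and all 9 were among the 15723 mouse and 14819 pig genes that were tested. The family was put forward after results of these tables had been seen. The values that could have drawn attention to it are the differences from vehicle, so those are given as a description, and their adjusted p-values, from a fit over all genes, are no independent evidence about the family. A protein's membership of the family was taken from its name, and no sequence was used to check it.

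RNA was measured by bulk sequencing of poly(A) RNA in 2 cell systems taken on day 5 of induced fat cell formation. One is 3T3-L1, a mouse embryonic fibroblast line that can turn into adipocytes, and the other is porcine DFAT cells, dedifferentiated fat cells grown from mature adipocytes of subcutaneous fat. In each system 3 libraries stood for each of 5 groups (30 libraries altogether): DMSO vehicle, dicoumarol, magnolol, dicoumarol plus magnolol (called the combination here) and rosiglitazone. Dicoumarol is a coumarin anticoagulant, magnolol a lignan of magnolia bark and rosiglitazone a synthetic agonist of the nuclear receptor PPARγ, the master regulator of fat cell formation. Every 3T3-L1 group, vehicle included, also received insulin at 0.75 µg/mL, dexamethasone at 75 nM and IBMX at 37.5 µM with 10% serum. Every DFAT group received dexamethasone at 0.5 µM and IBMX at 12.5 µM with biotin and pantothenate in 2% serum. The vehicle groups are therefore differentiating cells and not untreated precursors. No source used here gives the dose of any of the 3 compounds. Nothing in the labels says that the 3 libraries of a group came from separate cultures, so the p-values measure only the spread between these libraries, which may be technical.

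Small leucine-rich proteoglycans are secreted matrix proteins built on a curved stack of leucine-rich repeats. Most bind collagen fibrils, where they set fibril spacing and diameter, and several bind growth factors such as TGF-β or receptors of innate immunity. The family is divided into classes. Decorin, biglycan and asporin form the first, in which decorin and biglycan carry chondroitin or dermatan sulfate chains and asporin carries none. Lumican, fibromodulin, PRELP and osteomodulin belong to the next, some of them modified with keratan sulfate, osteoglycin to a further class, and podocan to a separate one. In fat tissue they are mainly products of the stromal and precursor cells rather than of mature adipocytes.

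Aspn, Omd and Ogn lie side by side on mouse chromosome 13, and their changes in 3T3-L1 cells differed in size. For that reason the 250 bases before the start site of each are shown, read from RefSeq on GRCm38.p6 (plus strand, 5′ to 3′). Capitals mark matches, on either strand, to TATAAA (the TATA box) or AGGTCA (a half-site bound by many nuclear receptors).
Aspn, chr13:49544193-49544442: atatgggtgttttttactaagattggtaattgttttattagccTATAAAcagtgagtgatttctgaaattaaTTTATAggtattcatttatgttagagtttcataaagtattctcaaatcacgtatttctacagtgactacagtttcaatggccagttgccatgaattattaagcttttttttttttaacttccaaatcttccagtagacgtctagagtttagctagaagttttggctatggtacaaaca
Omd, chr13:49582212-49582461: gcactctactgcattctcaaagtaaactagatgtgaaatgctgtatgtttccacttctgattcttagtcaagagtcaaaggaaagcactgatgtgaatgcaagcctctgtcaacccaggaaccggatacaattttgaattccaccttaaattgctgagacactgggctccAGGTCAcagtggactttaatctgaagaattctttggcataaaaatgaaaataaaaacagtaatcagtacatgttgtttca
Ogn, chr13:49607765-49608014: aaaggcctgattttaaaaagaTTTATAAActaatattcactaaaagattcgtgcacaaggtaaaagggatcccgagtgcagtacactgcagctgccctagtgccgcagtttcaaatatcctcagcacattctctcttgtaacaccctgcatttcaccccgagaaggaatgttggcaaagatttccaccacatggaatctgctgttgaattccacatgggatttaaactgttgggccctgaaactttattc
In the Aspn window TATAAA occurs at 207 bases before the start on the plus strand and at 178 on the minus strand, and in the Ogn window at 227 on the plus strand and at 229 on the minus strand, where the runs overlap. The Omd window holds AGGTCA at 80 bases before the start. Each of these words is common: of 32851 mouse windows of 250 bases, 12.4% hold TATAAA and 14.0% hold AGGTCA. Further words searched on both strands were AGAACA (a glucocorticoid receptor half-site, in 16.1% of windows), TGACGTCA (the cAMP response element, in 1.55%) and GGGCGG (the GC box, in 32.7%), and none of them occurs in these 3 windows. The windows are poor in G and C, at 30% for Aspn, 38.4% for Omd and 42% for Ogn, against a median of 52.4% over all windows. A match is a run of letters, and binding there was not measured.

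All values below are normalized counts, that is, deposited gene counts after division by each library's DESeq2 size factor, and those of a group are listed by replicate number. Estimated depth was 22800000 to 30700000 reads per 3T3-L1 library and 44800000 to 70500000 per DFAT library. The 2 tables were normalized separately and refer to different species, so no level was tested between them. Differences are log2 fold changes of normalized count + 1, a scale that makes changes of low genes look smaller, with the SE of limma; p-values were adjusted over all genes of a table. "Rose" and "fell" are used where the adjusted p was under 0.05. The summed normalized count of 9 adipocyte markers was 45137 to 63548 with vehicle and 332388 to 581404 with rosiglitazone in 3T3-L1, and 22781 to 24629 and 82479 to 88476 in DFAT. The 3 adipocyte markers Adipoq, Plin1 and Cidec had vehicle means of 453, 201 and 401 in 3T3-L1 and 28.3, 140.2 and 326 in DFAT, and rosiglitazone means of 13829, 5049 and 34692 and of 3980, 4683 and 3119. Of 4 immune markers, 1 was listed in 3T3-L1 and 3 in DFAT; only Cd68 exceeded a mean of 10 in either table, and CD3E was listed at 0 in every DFAT library.

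In 3T3-L1 cells the family was carried by a few very abundant genes. Divided by exonic length, since counts of different genes compare only per length, the vehicle level was 18814 ± 3735 (SD, n = 3) normalized counts per kb for Bgn, 11682 ± 1465 for Aspn and 5638 ± 1268 for Ogn. Dcn reached 517 ± 105 and Prelp 199 ± 19.9 counts per kb, while Lum (42.4 ± 8.52), Omd (34.7 ± 0.667), Fmod (10.2 ± 3.64) and Podn (5.84 ± 1.27) were far lower. Bgn ranked 10 to 22 of 24843 genes by normalized count over the 15 libraries. The 9 genes together took 0.562% to 0.675% of the summed counts of a vehicle library and 0.364% to 0.478% of that of a rosiglitazone library.

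**Figure D1:**
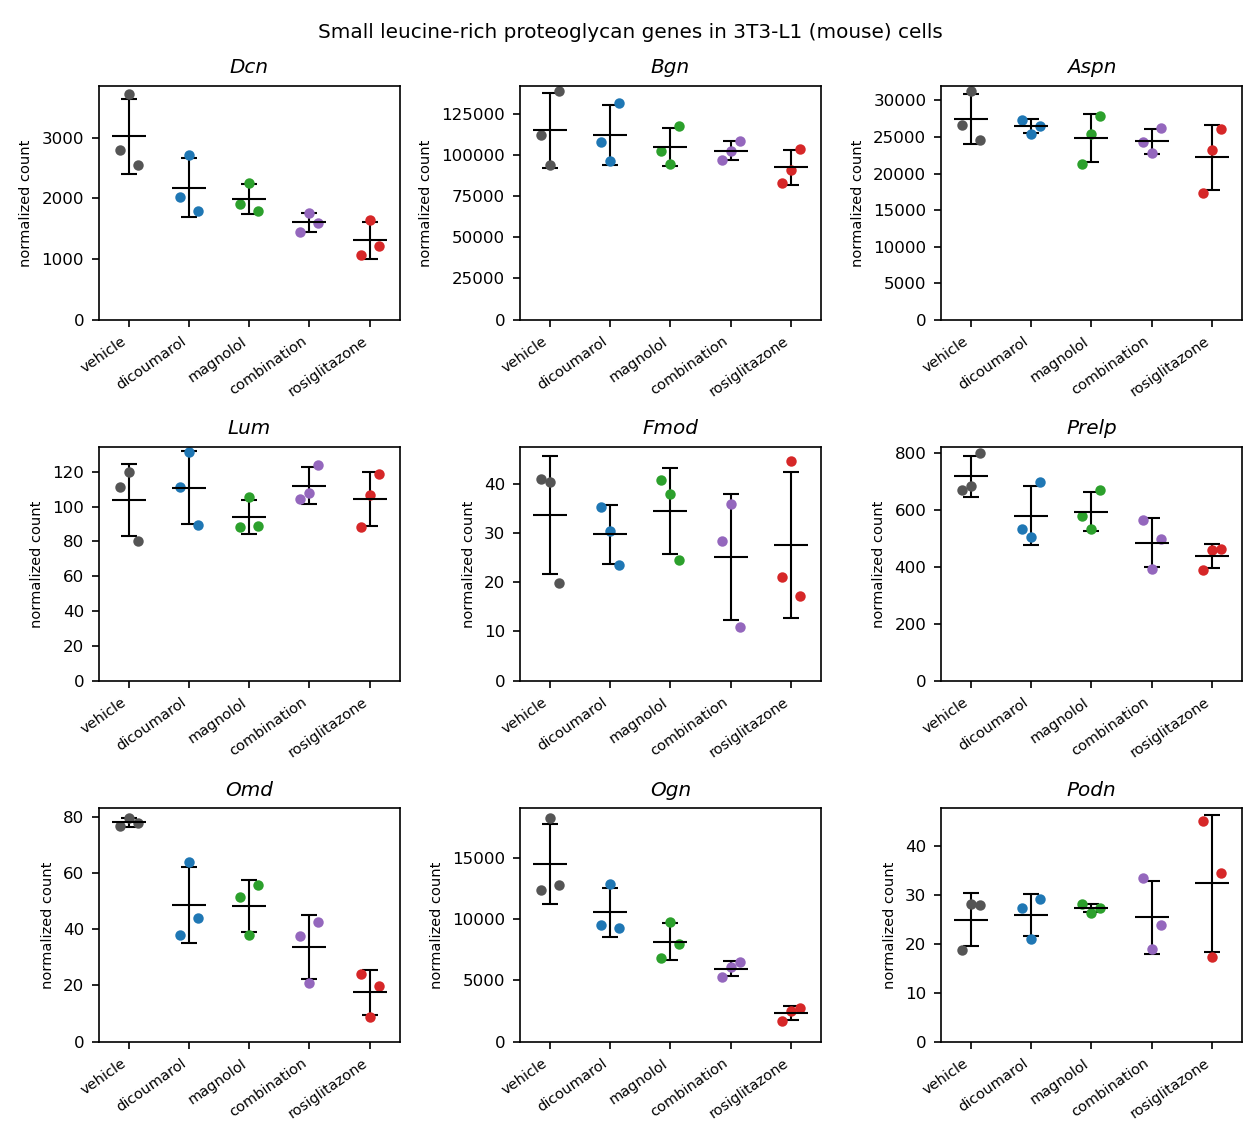
Normalized count of each of the 9 genes in the 15 3T3-L1 libraries, 1 panel per gene, with its own y axis from 0; points are libraries, by replicate number from left to right, and bars are the mean ± SD of 3 libraries. Ogn falls from vehicle values of 12384 to 18216 to rosiglitazone values of 1664 to 2738, whereas the Lum and Podn groups overlap throughout.

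Against vehicle, some of these genes were lower after treatment in 3T3-L1 cells and none was higher. With the combination Dcn, Prelp, Omd and Ogn fell, and with rosiglitazone Dcn, Prelp, Omd and Ogn fell again, each to a lower mean. That is 4 of 9 genes lower for the combination, where 5.22% of all 15723 genes were called (1.36% lower and 3.86% higher), and 4 of 9 lower for rosiglitazone, where 40.1% of all genes were called (19.9% lower and 20.3% higher). The median log2 fold change of the 9 genes was -0.49 with the combination and -0.32 with rosiglitazone, beside -0.01 and 0.00 over all genes tested. For dicoumarol alone limma called none of the 9 and 0% of all genes. At an unadjusted p under 0.05 stood 2 of the 9 and 393 of all genes, and 0 of the 9 were called by limma-voom, run on approximate reads. For magnolol alone none of the 9 was called (unadjusted p under 0.05 for 2, beside 1579 of all genes, and 0 called by limma-voom), with 1.23% of all genes called (1.07% higher and 0.153% lower).

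Replicate numbers pair the 3T3-L1 libraries, since those numbered alike deviated together across groups. Blocking on that number in the model called Dcn lower with dicoumarol (limma adjusted p 0.0216) and Dcn and Ogn lower with magnolol (limma adjusted p 6.81e-04 and 6.47e-04), and added Aspn and Bgn to the genes lower with rosiglitazone (limma adjusted p 0.0402 and 0.0281). With that block 1 of the 9 genes was called for dicoumarol (0.502% of all genes), 2 for magnolol (4.96%), 4 for the combination (13.5%) and 6 for rosiglitazone (49.8%). In each group the highest Dcn value was that of library 2 and the highest Bgn value that of library 3, in all 5 groups.

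Ogn, which codes for osteoglycin, had the largest fold change of the 9 with rosiglitazone, and for the combination Ogn and Omd had differences of like size. Its normalized counts were 12384, 18216 and 12802 in vehicle, 9519.8, 12827 and 9269.7 in dicoumarol, 6781, 9731 and 7934 in magnolol, 5311, 6081 and 6489 in combination and 1664, 2514 and 2738 in rosiglitazone libraries. Every magnolol, combination and rosiglitazone library lay below every vehicle library, and the 3 rosiglitazone libraries lay below all others. The log2 fold change was -1.26 for the combination (SE 0.19, limma adjusted p 0.00151) and -2.66 with rosiglitazone (limma adjusted p 1.83e-07), where Ogn fell by 84.2%. With dicoumarol it was -0.45 and with magnolol -0.82 (limma adjusted p 1 and 0.0516). In the order of group means (vehicle, dicoumarol, magnolol, combination, rosiglitazone) neither of the first 2 steps exceeded the summed SDs of the groups beside it, and both later steps did. Summed SDs leave out the pairing, and within each of the 3 replicate numbers the Ogn count was lower at every one of these steps. Fewer cells of a type that makes a transcript and less of it per cell cannot be told apart in bulk RNA.

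Omd, the neighbour of Ogn that codes for osteomodulin, a protein best known from bone and tooth matrix, was far less abundant. Vehicle libraries held 76.6, 79.6 and 77.9 counts, dicoumarol 38.0, 63.8 and 43.9, magnolol 51.4, 38.0 and 55.8, the combination 37.5, 20.8 and 42.7 and rosiglitazone 24.1, 8.70 and 19.8. All 12 treated libraries lay below the 3 vehicle libraries. The log2 fold change of Omd was -1.25 for the combination (SE 0.34, limma adjusted p 0.0430) and -2.20 with rosiglitazone (limma adjusted p 1.07e-04). The combination call was lost when any 1 of the 6 libraries of that comparison was left out, with a limma adjusted p of up to 0.158 (without combination replicate 2). Beyond the step from vehicle to dicoumarol, no step in the order of its means exceeded the summed SDs. The differences of -0.71 with dicoumarol and -0.70 with magnolol missed the threshold (limma adjusted p 1 and 0.516).

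Dcn codes for decorin, which binds collagen I fibrils and TGF-β. It was measured at 2796, 3715 and 2548 normalized counts in vehicle, 2020.2, 2715 and 1791 in dicoumarol, 1901, 2259 and 1790.2 in magnolol, 1444, 1765 and 1601 in combination and 1063, 1639.9 and 1214 in rosiglitazone libraries. The groups treated with magnolol, the combination or rosiglitazone did not overlap vehicle, while the dicoumarol group did. The log2 fold change of Dcn was -0.90 for the combination (SE 0.18, limma adjusted p 0.00694) and -1.21 with rosiglitazone (limma adjusted p 7.06e-05). Leaving out combination replicate 1 ended the first call (limma adjusted p 0.0537). In the same order of group means as for Ogn, no step of Dcn exceeded the summed SDs, which leave out the pairing, but within each of the 3 replicate numbers the Dcn count was lower at every step.

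Prelp codes for a basic matrix protein that links basement membranes to connective tissue. Its counts were 672, 684 and 802 in vehicle, 535, 508 and 700.2 in dicoumarol, 578, 536 and 673 in magnolol, 566, 393 and 499 in combination and 390.0, 461 and 463 in rosiglitazone libraries. Combination and rosiglitazone libraries all lay below vehicle, and the groups of the single compounds overlapped it. Prelp fell by 32.9% with the combination (log2 fold change -0.58, SE 0.15, limma adjusted p 0.0350) and fell by 39.0% with rosiglitazone (limma adjusted p 0.00137). The combination call was lost without vehicle replicate 1, 2 or 3 and without combination replicate 2 or 3 (limma adjusted p 0.0602 to 0.136), and it held without combination replicate 1.

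The other 5 genes passed no test against vehicle in 3T3-L1 in the model without the replicate block. Bgn, the most abundant and like decorin a chain-bearing class member that can signal through Toll-like receptors, ranged from 82895 to 138872; its group means were 114750.0 ± 22781 (SD, n = 3) with vehicle and 92367 ± 10474 with rosiglitazone (log2 difference -0.30, 95% interval -0.64 to 0.04). Bgn was called lower with rosiglitazone with the block, as given above, and under quantile normalization (limma adjusted p 0.0304). Aspn, the class member without a sugar chain, had means of 27501 ± 3449 with vehicle and 22213 ± 4437 with rosiglitazone (log2 difference -0.32, limma adjusted p 0.0819). It too was called lower with the block, and also on equal library totals (limma adjusted p 0.0371), under quantile normalization (0.0471) and without rosiglitazone replicate 3 (0.0273). Lum, a corneal and skin keratan sulfate proteoglycan, ranged over 80.2 to 131 counts, with a rosiglitazone difference of 0.02 and an interval of -0.38 to 0.42. Fmod, which guides collagen fibril assembly in tendon, ranged over 10.9 to 44.6 counts and Podn over 17.4 to 45.1, levels at which the SE of a log2 difference was 0.43 and 0.32. The gene Scp2 overlaps Podn on the same strand of the deposited annotation, with a mean of 3544 counts and a rosiglitazone change of 1.03, and how reads in such overlaps were assigned was not tested, so the Podn values are uncertain.

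In DFAT cells more of the family was abundant. BGN ranked 38 to 50 and FMOD 43 to 64 of 34307 genes by normalized count, LUM 76 to 256, OMD 128 to 565 and ASPN 135 to 740. No transcript lengths for the pig were used, so the levels of different pig genes are not compared. Set beside the separately normalized mouse table, and with no test, vehicle levels were 78978 ± 3599 for FMOD against 33.7 ± 12.0 for mouse Fmod, 56926 ± 3191 for LUM against 104 ± 20.9, and for osteomodulin 27546 to 32611 against 76.6 to 79.6 over the 3 libraries. For biglycan they were 111388 ± 7792 in DFAT and 114750.0 ± 22781 in 3T3-L1. Summed normalized counts per library were larger in DFAT, so like counts are not like shares. Of all counts of a vehicle library, biglycan took a mean of 0.191% in DFAT and 0.433% in 3T3-L1. The 9 genes took 0.531% to 0.558% of all counts with vehicle, 0.543% to 0.568% with the combination and 0.447% to 0.490% with rosiglitazone.

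**Figure D2:**
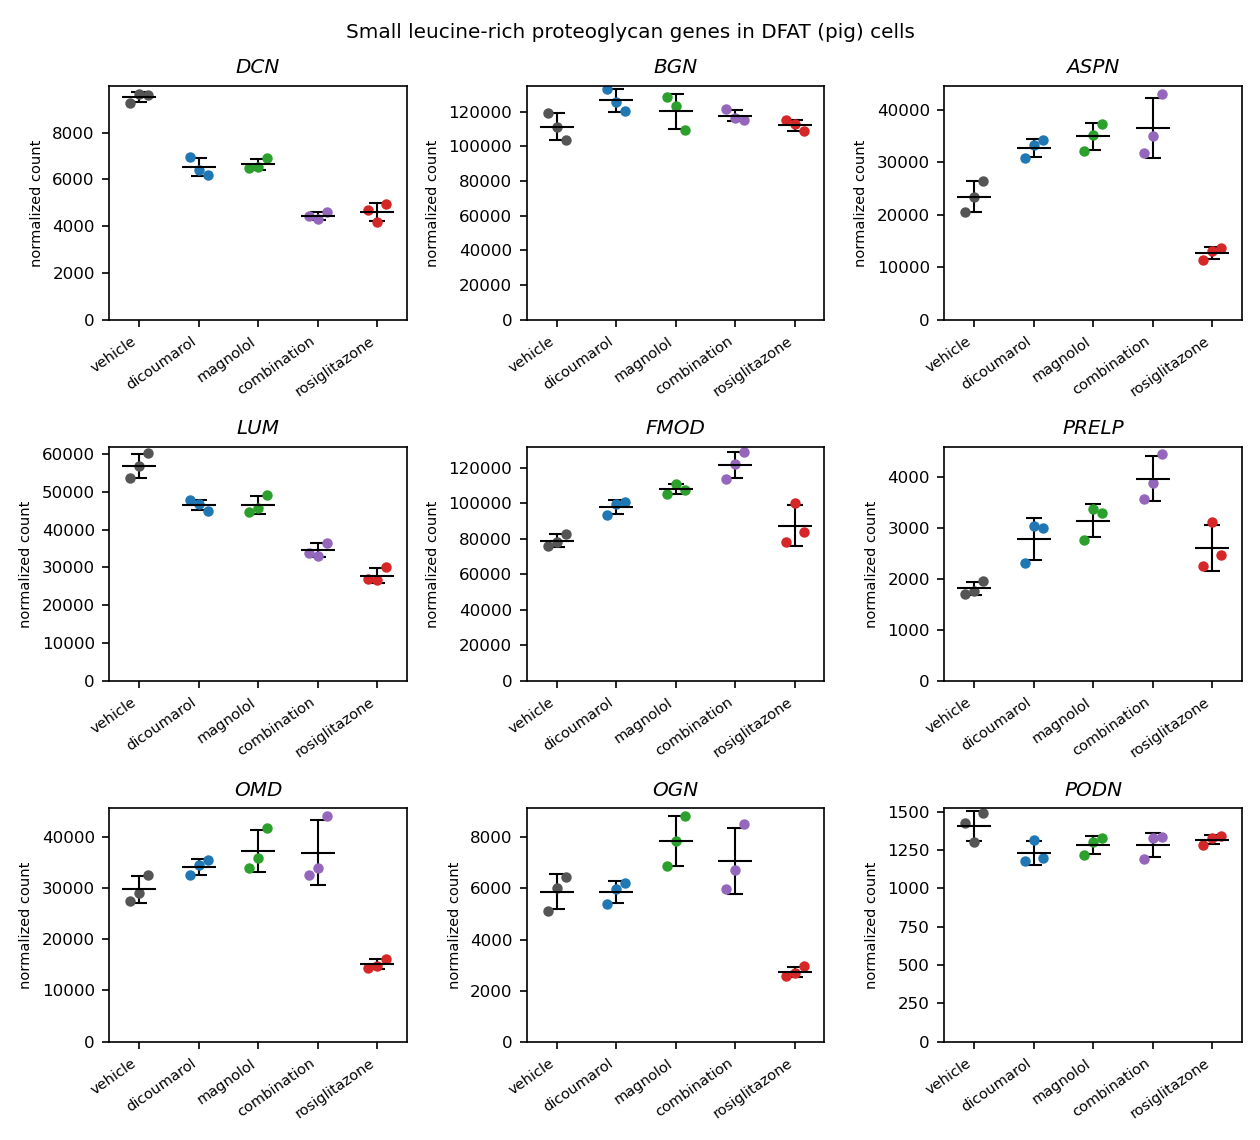
Normalized count of each of the 9 genes in the 15 DFAT libraries, drawn as in the 3T3-L1 plot (y axis from 0, points are libraries, bars the mean ± SD of 3). DCN and LUM step down from vehicle to the single compounds to the combination, FMOD and PRELP step up, and ASPN, OMD and OGN are lowest with rosiglitazone.

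The genes did not move as 1 group in DFAT cells. DCN and LUM fell with every treatment. PRELP rose with every treatment and FMOD rose with magnolol and the combination. ASPN rose with both single compounds and the combination but fell with rosiglitazone, and OMD and OGN fell with rosiglitazone only among these tests. In counts, 4 of 9 genes were called for dicoumarol (2 higher and 2 lower), where 1.94% of all 14819 genes were called (0.911% higher and 1.03% lower). Magnolol gave 5 of 9 (3 higher and 2 lower) against 4.22% of all genes (2.96% higher and 1.27% lower), and the combination 5 of 9 (3 higher and 2 lower) against 10.2% (6.11% higher and 4.06% lower). Rosiglitazone gave 6 of 9 (1 higher and 5 lower) against 10.8% (5.8% higher and 5.02% lower). The median log2 fold change of the 9 was 0.18, 0.32, 0.26 and -0.88 in that order, beside 0.00, -0.01, -0.01 and -0.01 over all genes tested.

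DCN, the decorin gene, had counts of 9261, 9641 and 9612 in vehicle, 6962, 6422 and 6184 in dicoumarol, 6483, 6535 and 6902 in magnolol, 4431, 4285 and 4609 in combination and 4683, 4171 and 4926 in rosiglitazone libraries. No treated library reached the vehicle range, and the combination and rosiglitazone groups lay below both single compounds. The log2 fold changes of DCN were -0.54, -0.52, -1.10 and -1.05 for these 4 treatments in the same order (SE 0.06, limma adjusted p 8.35e-05, 7.38e-05, 3.50e-09 and 3.74e-09). Neither dicoumarol and magnolol nor the combination and rosiglitazone differed beyond their summed SDs.

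LUM, which lies near DCN on the chromosome, codes for lumican, which binds the same kind of collagen fibril as decorin. It was measured at 53793, 56814 and 60172 counts in vehicle, 47751, 46733 and 44961 in dicoumarol, 44644, 45603 and 49266 in magnolol, 33759, 33102 and 36586 in combination and 26844, 26549.9 and 30037 in rosiglitazone libraries. Again no treated library reached the vehicle range, and the rosiglitazone group was the lowest. LUM fell by 0.72 on the log2 scale for the combination (SE 0.07, limma adjusted p 1.62e-06) and fell by 1.03 with rosiglitazone (limma adjusted p 1.18e-08). The smaller changes of -0.29 with dicoumarol and -0.29 with magnolol had limma adjusted p of 0.0361 and 0.0211. The dicoumarol call was lost without any 1 of the 6 libraries (limma adjusted p 0.0514 to 0.191), and the magnolol call without magnolol replicate 1 or 2 or vehicle replicate 2 or 3 (limma adjusted p 0.0517 to 0.112).

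FMOD and PRELP moved the other way. FMOD counts were 75830.2, 78201 and 82901 in vehicle, 93156, 99360.0 and 100893 in dicoumarol, 105236, 111002 and 107561 in magnolol, 113924, 122098 and 128805 in combination and 77965, 100179 and 84102 in rosiglitazone libraries. All libraries of the single compounds and the combination lay above vehicle, while the rosiglitazone group overlapped it. FMOD rose by 0.45 with magnolol (SE 0.09, limma adjusted p 0.00420) and by 0.62 with the combination (limma adjusted p 1.03e-04). With dicoumarol the difference was 0.31 (limma adjusted p 0.0921) and with rosiglitazone 0.14 (limma adjusted p 0.398). The magnolol call was lost under quantile normalization (limma adjusted p 0.162).

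PRELP held 1713, 1766 and 1968 counts in vehicle, 2308, 3051 and 2995 in dicoumarol, 2774, 3373 and 3301 in magnolol, 3574, 3888 and 4458 in combination and 2254, 3117 and 2474 in rosiglitazone libraries. Every treated library exceeded every vehicle library, and the combination libraries were the highest. PRELP rose by 0.61, 0.79, 1.13 and 0.52 on the log2 scale in that order (SE 0.12, limma adjusted p 0.0132, 7.88e-04, 8.33e-06 and 0.0108), the combination value being a fitted fold change of 2.18. The dicoumarol call was lost without dicoumarol replicate 2 or 3 or vehicle replicate 1 or 2 (limma adjusted p 0.0517 to 0.0917), and the rosiglitazone call without vehicle replicate 1 (0.0529, limma).

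ASPN, OMD and OGN all fell with rosiglitazone, the lowest group for each of them. ASPN was at 20501, 23276 and 26473 in vehicle, 30878, 33279 and 34158 in dicoumarol, 32154, 35196 and 37316 in magnolol, 31806, 34982 and 42929 in combination and 11398, 13012 and 13625 in rosiglitazone libraries. The dicoumarol, magnolol and combination groups lay wholly above vehicle and the rosiglitazone group wholly below it. ASPN rose by 0.49, 0.58 and 0.64 with dicoumarol, magnolol and the combination (SE 0.11, limma adjusted p 0.0204, 0.00315 and 6.41e-04) and fell by 0.88 with rosiglitazone (limma adjusted p 1.87e-05). These comparisons share the vehicle libraries. The dicoumarol call was lost without dicoumarol replicate 2 or 3 or vehicle replicate 1 or 2 (limma adjusted p 0.0625 to 0.139).

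OMD counts were 27546, 29025 and 32611 in vehicle, 32452, 34522 and 35546 in dicoumarol, 33929, 35944 and 41753 in magnolol, 32602, 33989.6 and 44117 in combination and 14349.6, 14791 and 16169 in rosiglitazone libraries. OGN counts were 5121, 6014 and 6464, 5375, 5996 and 6222, 6894, 7864 and 8839, 5999, 6715 and 8528 and 2589, 2689 and 2966 in the same order. In both genes the 3 rosiglitazone libraries lay far below the other 12. OMD fell by 0.98 on the log2 scale (SE 0.10, limma adjusted p 3.98e-06) and OGN fell by 1.09 with rosiglitazone (SE 0.12, limma adjusted p 4.54e-06). With magnolol all 3 libraries of each gene exceeded vehicle, at log2 differences of 0.32 for OMD and 0.42 for OGN that missed the threshold (limma adjusted p 0.1 and 0.0523). OGN passed it without magnolol replicate 1 (0.0364, limma) or without vehicle replicate 3 (0.0478, limma). It also passed under quantile normalization (0.0348, limma), with only the compared groups (0.0242, limma) and with the replicate block (1.15e-04, limma). OMD passed with the block (0.00173, limma). DFAT numbers do not pair the vehicle libraries. For the combination OMD passed without combination replicate 1 (0.0443, limma).

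BGN and PODN passed no test in DFAT cells. BGN means ran from 111388 ± 7792 with vehicle to 126431 ± 6443 with dicoumarol, and no adjacent means differed beyond their spread, while the lowest and the highest did. All 3 dicoumarol libraries lay above all 3 vehicle libraries, at a log2 difference of 0.18 (95% interval 0.02 to 0.35, unadjusted p 0.0339, limma adjusted p 0.417). Its rosiglitazone difference was 0.01 with a 95% interval of -0.16 to 0.18. PODN, the member of the separate podocan class, ranged over 1177 to 1495 counts in all 15 libraries, with differences of -0.19 to -0.09 from vehicle. Rescaling every library to the same total made PODN lower with magnolol and with the combination (-0.27 and -0.30, limma adjusted p 0.0224 and 0.00827). Under that rescaling all genes had a median of -0.14 and -0.17 in the same comparisons.

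**Figure D3:**
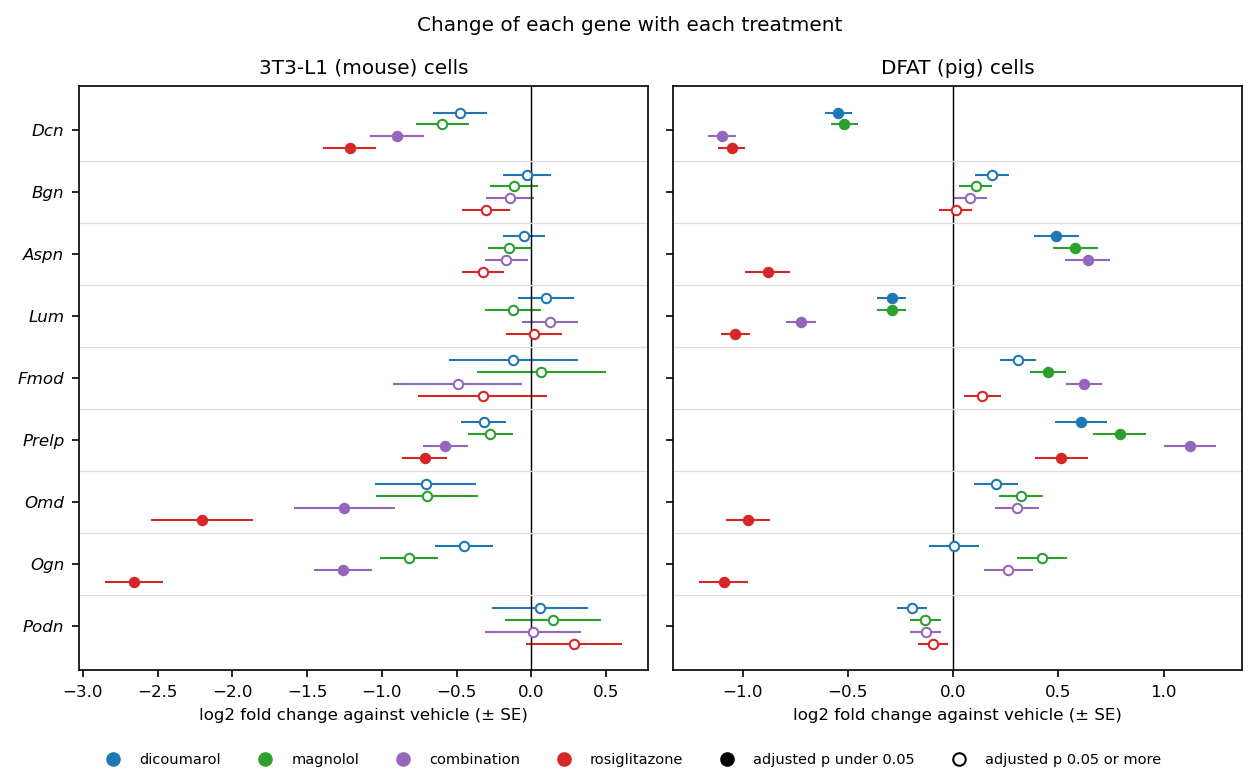
Log2 fold change against vehicle (x axis, ± SE) of the 9 genes (y axis) for the 4 treatments, in 3T3-L1 (left) and DFAT cells (right); filled points have an adjusted p under 0.05. The x axes differ in range. Dcn lies left of 0 for every treatment in both systems, whereas Prelp lies left of 0 in 3T3-L1 and right of 0 in DFAT.

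Adding 1 compound to the other was tested directly. In DFAT cells the combination was lower than dicoumarol alone for DCN (-0.55, limma adjusted p 4.60e-05) and LUM (-0.43, limma adjusted p 0.00139) and higher for PRELP (0.52, limma adjusted p 0.0335), 3 of 9 genes where 2.35% of all genes were called. Against magnolol alone DCN (-0.58, limma adjusted p 1.85e-04) and LUM (-0.43, limma adjusted p 0.00461) were lower, 2 of 9 genes where 0.621% of all genes were called. Replicate numbers pair the libraries of this last comparison, and with the block, which called 1.96% of all genes, PRELP was also higher (0.33, limma adjusted p 0.0395). The PRELP call against dicoumarol was lost without dicoumarol replicate 1 or 3 and without combination replicate 2 or 3 (limma adjusted p 0.0555 to 0.224) and on equal library totals (0.0957, limma).

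In 3T3-L1 cells the model without the replicate block set the combination apart from a single compound for none of the 9 genes. Against dicoumarol 0.0254% of all genes were called, and 2 of the 9 genes had an unadjusted p under 0.05. Those were Dcn (-0.42) and Ogn (-0.81), and with the replicate block, which called 3.62% of all genes, both were lower (limma adjusted p 0.0140 and 0.00123). Against magnolol 0% of all genes were called by limma, while 336 of all genes and 1 of the 9 had an unadjusted p under 0.05. The interaction of the 2 compounds, that is the combination minus both single compounds plus vehicle, gave no call for any of the 9 genes in either system. It was called for 0% of all 3T3-L1 genes and 0.081% of all DFAT genes, with 0 and 1 of the 9 (and 78 and 582 of all genes) below 0.05 before adjustment. The 1 member was ASPN, at -0.43 (95% interval -0.75 to -0.11, unadjusted p 0.0112, limma adjusted p 0.870). By limma-voom, too, 0 of the 9 were called for both interactions and for both of these 3T3-L1 comparisons. For DCN in DFAT the interaction was -0.04 with an interval of -0.23 to 0.16, and for Ogn in 3T3-L1 0.01 with -0.57 to 0.59.

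Several of these genes are neighbours in the genome. The coordinates are as deposited: the submitters' processing notes name GRCm38, but 0 of 9 mouse starts equalled those of the GENCODE annotation of that build, so the build is not settled here. The sequence windows shown earlier are on GRCm38.p6, and their positions cannot be set beside the deposited ones. The Aspn window ends at 49544442, whereas the deposited Aspn start is 49697919. Mouse Aspn (chromosome 13, 49697919 to 49721041, plus strand), Omd (chromosome 13, 49735938 to 49746298, plus strand) and Ogn (chromosome 13, 49761522 to 49777977, plus strand) are separated by 14.896 and 15.223 kb. In the pig OGN (chromosome 3, 42116526 to 42135939, minus strand), OMD (chromosome 3, 42142658 to 42154583, minus strand) and ASPN (chromosome 3, 42165561 to 42192813, minus strand) are 6.718 and 10.977 kb apart. Mouse Dcn (chromosome 10, 97315471 to 97354005, plus strand) and Lum (chromosome 10, 97400990 to 97408565, plus strand) lie 46.984 kb apart, and pig DCN (chromosome 5, 91682658 to 91714235, plus strand) and LUM (chromosome 5, 91748885 to 91757598, plus strand) 34.649 kb. Prelp and Fmod are 115.839 kb apart on mouse chromosome 1 and 117.123 kb on pig chromosome 9, and Bgn is on the X chromosome in both species.

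**Figure D4:**
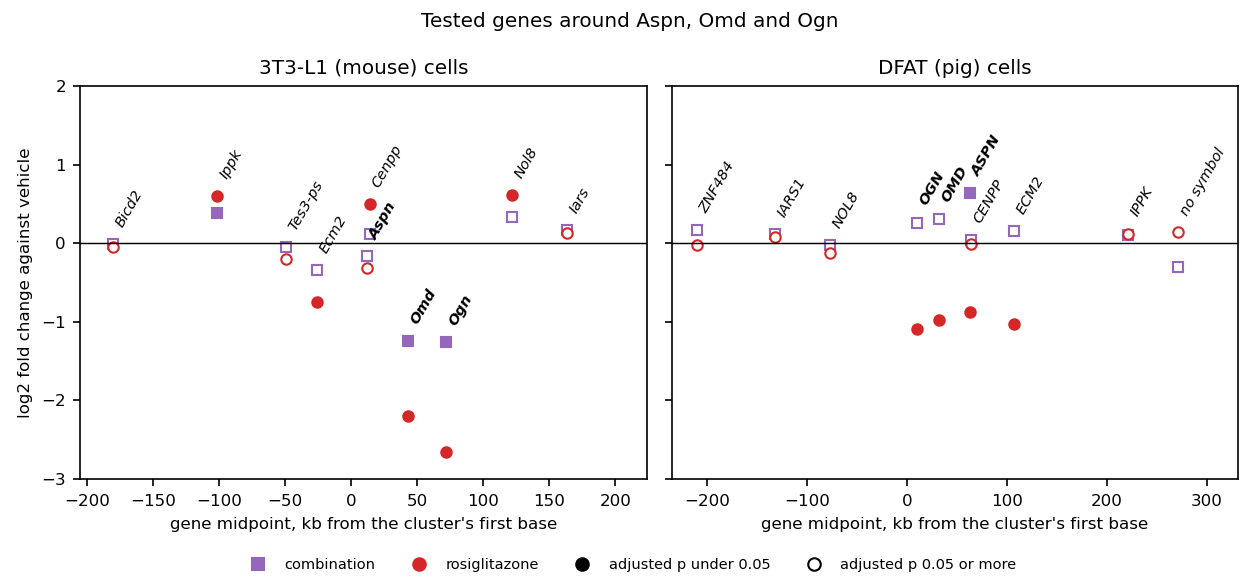
Log2 fold change against vehicle (y axis) of the tested genes within 200 kb of the Aspn, Omd and Ogn cluster, by distance of the gene's midpoint from the first base of the cluster in kb (x axis), for the combination (squares) and rosiglitazone (circles); filled symbols have an adjusted p under 0.05 and the 3 family members are in bold. With rosiglitazone the 3 pig members and ECM2 lie near -1 while the genes around them lie near 0, and in the mouse Omd and Ogn lie at -2.20 and -2.66 with Aspn at -0.32.

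Within the cluster the fold changes with rosiglitazone were of like size in the pig and spread widely in the mouse; the spread itself was not tested. OGN, OMD, ASPN and the adjoining ECM2, which codes for a related leucine-rich repeat matrix protein, changed by -1.09, -0.98, -0.88 and -1.02 in DFAT cells. In 3T3-L1 Ecm2 fell by 0.75 (limma adjusted p 0.00908), whereas the differences were -0.32 for Aspn, -2.20 for Omd and -2.66 for Ogn. The ratio of Ogn to Aspn counts accordingly went from 0.523 ± 0.0592 (SD, n = 3) with vehicle to 0.244 ± 0.0240 with the combination and 0.103 ± 0.00662 with rosiglitazone in 3T3-L1. In DFAT that ratio was 0.251 ± 0.00715, 0.193 ± 0.00512 and 0.217 ± 0.0103. Cenpp, a centromere protein gene on the opposite strand, spans all 3 members in both species, and no source used here says whether counting used the strand. Its mean was 79.1 counts in 3T3-L1, beside 45.2 for Omd, and 167 in DFAT, and its rosiglitazone difference was 0.50 in 3T3-L1 (limma adjusted p 0.029) and 0.00 in DFAT.

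Library by library, the values of these neighbours were compared as well. Over the 15 DFAT libraries Pearson's r of log2 values was 0.93 for DCN and LUM, 0.96 for FMOD and PRELP, 0.98 for ASPN and OMD and 0.98 for OMD and OGN. After the group means were taken out these were 0.78, 0.90, 0.93 and 0.96. In 3T3-L1 the same pairs gave 0.23, 0.05, 0.46 and 0.83, and after the group means were taken out 0.72, -0.43, -0.13 and -0.17. Lum, Fmod and Omd had low counts there. The points share their libraries, their size factors and the group structure, so these are descriptions. In DFAT the highest ASPN, OMD and OGN values of a group were those of library 3 in all 5 groups, and the highest BGN value that of library 1.

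**Figure D5:**
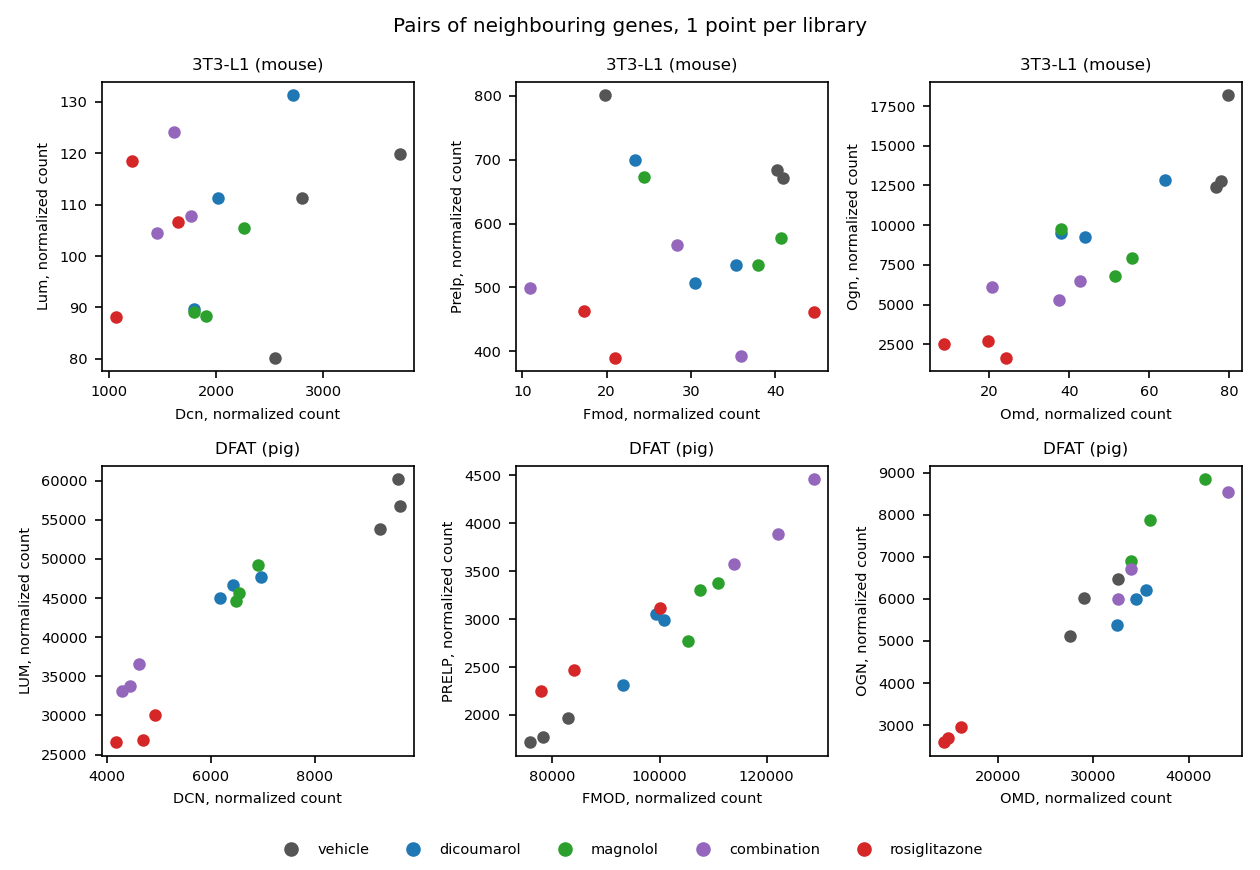
Normalized counts of 3 pairs of genes that lie near each other, 1 point per library coloured by group, for 3T3-L1 (top) and DFAT (bottom); axes do not start at 0. In DFAT the points of each panel follow a rising line, with vehicle at the top for DCN and LUM and at the bottom for FMOD and PRELP, and in 3T3-L1 the first 2 pairs show no such line.

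Ratios within a library do not depend on the size factors. In DFAT the ratio of FMOD to LUM counts was 1.39 ± 0.0188 (SD, n = 3) in vehicle, 2.11 ± 0.148 in dicoumarol, 2.32 ± 0.128 in magnolol, 3.53 ± 0.157 in combination and 3.16 ± 0.534 in rosiglitazone libraries. Fibromodulin and lumican are related proteins that compete for a binding site on collagen, and the vehicle ratios lay below those of all treated libraries. The ratio of PRELP to DCN went from 0.191 ± 0.0120 with vehicle to 0.894 ± 0.0811 with the combination and 0.577 ± 0.148 with rosiglitazone. That of BGN to DCN, the pair of chain-bearing proteoglycans, went from 11.7 ± 1.06 to 26.5 ± 1.35 and 24.6 ± 2.51 in DFAT. In 3T3-L1 it was 39.9 ± 14.7, 64.3 ± 5.49 and 72.9 ± 15.7, with a wide spread among vehicle libraries.

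The genes whose profile over the 15 libraries was most like each member were named by Pearson's r of log2 values among genes with a mean of at least 100. In 3T3-L1 the 3 nearest to Ogn were Rnase4 (0.99), Sema3f (0.99) and Ehbp1 (0.99), and to Dcn Tpm1 (0.96), Mmp3 (0.95) and Il1rl1 (0.95), where Mmp3 codes for a protease that can cleave decorin. For Prelp they were Parp9 (0.91), Slc31a2 (0.90) and Thsd7a (0.89), for Omd Zmym6 (0.94), Ccdc82 (0.92) and Tnrc6a (0.92), for Bgn Rnh1 (0.94), P3h3 (0.94) and Calm3 (0.93) and for Aspn Nab1 (0.94), B3glct (0.93) and Sh3bgrl (0.92). Lower values were the best found for Lum (St7l (0.81), Ptp4a2 (0.80) and Gm9260 (0.78)), Fmod (Pcbp3 (0.89), Gm13337 (0.89) and Map7d1 (0.87)) and Podn (Zkscan3 (0.85), Hoxd4 (0.84) and Gtpbp2 (0.83)). In DFAT 2 of the nearest genes to OGN and OMD were each other and CDH11, a cadherin of mesenchymal cells: OMD (0.98), CDH11 (0.97) and PLXDC2 (0.97) for OGN, CDH11 (0.99), OGN (0.98) and ECM2 (0.98) for OMD and GLT8D2 (0.99), OMD (0.98) and CDH11 (0.98) for ASPN. FMOD was nearest to smooth muscle genes, CNN1 (0.99), MYLK (0.98) and MYH11 (0.97), and PRELP to FMOD (0.96), NT5E (0.95) and CNN1 (0.95). For DCN they were C3 (0.94), LUM (0.93) and SPIDR (0.92), for LUM COLEC12 (0.95), DCN (0.93) and MARCKS (0.93), for BGN SGSH (0.89), CABIN1 (0.89) and BRD9 (0.88) and for PODN ACTR6 (0.88), INTS14 (0.84) and PDE8B (0.81).

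For the gene lists that follow, the shares of all genes called give the background. With rosiglitazone these were 40.1% in 3T3-L1 and 10.8% in DFAT, and for the combination 5.22% and 10.2%. A list whose share lies near these is no result about that list, and no list was tested as a set.

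Of 9 further genes of the family or close to it (Epyc, Kera, Optc, Ecm2, Chad, Chadl, Nyx, Tsku and Podnl1), 4 passed the filter on low values in 3T3-L1 and 6 in DFAT. None was called for dicoumarol, magnolol or the combination in either system. With rosiglitazone 3 of the 4 fell (19.9% of all genes) and none rose in 3T3-L1, among them Kera, the keratocan gene beyond Lum on the chromosome (-2.29, limma adjusted p 1.66e-05), and Podnl1 (-0.86). In DFAT 2 of the 6 fell (5.02% of all genes) and none rose, ECM2 (-1.02) and PODNL1 (-0.84). The medians of those tested were -0.80 in 3T3-L1 and -0.14 in DFAT with rosiglitazone.

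The enzymes that build the sugar chains were looked up next. Of 23 genes for chondroitin and dermatan sulfate synthesis, 19 were tested in 3T3-L1 and 22 in DFAT. With the combination 1 rose and 1 fell in 3T3-L1, Chst11 (0.50), a chondroitin sulfotransferase, and Csgalnact1 (-0.77), which starts the chain. With rosiglitazone 2 of the 19 rose (20.3% of all genes) and 7 fell (19.9%) there (median -0.20), led by Chst11 (0.73) and B3galt6 (0.62) upward and Csgalnact1 (-1.81) and Ust (-1.19) downward. In DFAT 7 of the 22 rose (6.11% of all genes) and 1 fell (4.06%) with the combination, and 5 rose (5.8%) and 3 fell (5.02%) with rosiglitazone (medians 0.09 and 0.02). CHST13, another chondroitin sulfotransferase, rose by 3.74 and 3.46, CHSY3 by 0.84 with the combination and CHST3 by 0.51 with rosiglitazone. CHST15 fell by 0.33 with the combination, and DSE, the epimerase that makes dermatan sulfate, fell by 0.36 with rosiglitazone.

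For keratan sulfate, which lumican, fibromodulin and related proteins can carry, 5 of 8 genes were tested in 3T3-L1 and 4 in DFAT. None was called with the combination in either system. With rosiglitazone 3 of the 5 fell in 3T3-L1 (19.9% of all genes), led by B3gnt2 (-1.22) and Chst2 (-1.18), and 1 of the 4 fell in DFAT (5.02%), B4GALT4 (-0.26). Among 13 proteases that can cut these proteins, 11 were tested in 3T3-L1, of which 2 fell with the combination (1.36% of all genes), Mmp3 (-1.85) and Mmp14 (-0.39). With rosiglitazone 10 of the 11 fell (19.9% of all genes; median -0.98), led by Mmp3 (-2.91) and Mmp8 (-1.79). In DFAT 9 were tested: 2 rose with the combination (6.11% of all genes), ADAMTS4 (0.75) and TLL1 (0.59), and with rosiglitazone 1 rose (5.8%), ADAMTS4 (2.26), and 4 fell (5.02%), led by ADAMTS1 (-0.97) and MMP2 (-0.45).

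Matrix partners, the collagens and crosslinking enzymes these proteoglycans work with, were 17 genes, 15 of them tested in each system. In 3T3-L1 none was called with the combination, while with rosiglitazone 11 of the 15 fell (19.9% of all genes) and 1 rose (20.3%; median -0.58): Col12a1 (-1.86) and the lysyl oxidase gene Lox (-1.84) led the falls and Col6a3 (0.59) rose. In DFAT 4 of the 15 rose with dicoumarol (0.911% of all genes) and 8 with magnolol (2.96%; medians 0.26 and 0.57), and none fell. With the combination 8 rose there (6.11%) and 1 fell (4.06%; median 0.55), led by ELN (2.49), the elastin gene, and COL11A1 (1.89), with COL14A1 (-0.39) lower. With rosiglitazone 1 rose there (5.8%), COL6A3 (0.61), and 2 fell (5.02%), COL14A1 (-1.19) and LOX (-0.27).

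Ligands and receptors bound by these proteins were 20 genes, 15 tested in 3T3-L1 and 17 in DFAT. None was called with the combination in 3T3-L1 and 9 of the 15 fell with rosiglitazone (19.9% of all genes; median -0.46), led by the Toll-like receptor genes Tlr2 (-1.35) and Tlr4 (-1.32). In DFAT 3 of the 17 rose (6.11% of all genes) and 2 fell (4.06%) with the combination, among them TGFB3 (1.20), MET (0.51), TGFBR3 (-0.29) and TLR4 (-0.20). With rosiglitazone 6 rose (5.8%) and 4 fell (5.02%), with TGFB3 (0.82) and CCN2 (0.74) highest and TGFBR2 (-0.35) and TGFB2 (-0.32) lowest. Of 16 other proteoglycans, 12 were tested in 3T3-L1, where none was called with the combination and 8 fell with rosiglitazone (19.9% of all genes), led by Sdc2 (-1.19) and Gpc6 (-1.16). In DFAT 13 were tested, of which 3 rose (6.11%) and 1 fell (4.06%) with the combination and 3 rose (5.8%) and 4 fell (5.02%) with rosiglitazone. CSPG4, the NG2 proteoglycan gene, rose most (1.71 and 1.19), and HSPG2 rose with the combination (0.70). With rosiglitazone SDC2 rose (0.32) and AGRN (-0.57) and VCAN (-0.46) were the lowest.

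Markers of other cell states shifted in some of these comparisons and not in others. In 3T3-L1 the summed count of 7 listed stromal progenitor markers was 147033 to 163635 with vehicle, 114219 to 132487 with the combination and 95224 to 109527 with rosiglitazone. Of the 7 tested, 6 fell with rosiglitazone (19.9% of all genes). The sum of 9 adipocyte markers was 118741 to 187561 with the combination, with 7 of 8 tested higher (3.86% of all genes). In DFAT the stromal sum was 376587 to 390361, 303470.0 to 335973 and 350989 to 386561 in those groups, and the adipocyte sum was 61465 to 67619.7 with the combination. VIM made up most of that stromal sum (vehicle mean 285046). With the combination 1 of 5 tested stromal markers rose (6.11% of all genes) and 1 fell (4.06%). Their median was 0.24, and 3 of the 5 differences lay above 0. With rosiglitazone 1 of the 5 fell (5.02%) and none rose, and the sum overlapped vehicle. The DFAT sum of 5 contractile or mural markers, none of them under a mean of 10, was 103934 to 124529 with vehicle, 152890.0 to 165146 with magnolol, 170339 to 188999 with the combination and 131159 to 202677 with rosiglitazone. ACTA2 and TAGLN made up most of it (vehicle means 60502 and 49759). Of the 5, 4 rose with the combination (6.11% of all genes) and 2 with rosiglitazone (5.8%), and none fell. The RGS5 mean was 34.9 with vehicle, 18.4 with the combination and 42.9 with rosiglitazone. DLK1, a preadipocyte marker, was at most 0.934 in any DFAT library. In 3T3-L1 the sum of those 5 contractile or mural markers, of which 2 were under a mean of 10, was 2843 to 5569.5 with vehicle, 1617 to 2347 with the combination and 1346 to 2555 with rosiglitazone. Acta2 made up most of it (vehicle mean 4164). Of 3 tested, 1 rose with rosiglitazone (20.3% of all genes) and 2 fell (19.9%). The Myh11 mean was 37.2 with vehicle and 97.3 with rosiglitazone. The 3T3-L1 sum of 9 cartilage, bone or tendon markers was 4219 to 4345 with vehicle, 3404 to 3916 with the combination and 2533 to 3003 with rosiglitazone. Neither treated group overlapped vehicle. In DFAT that sum was 4077 to 4619, 3722 to 4222 and 3706 to 4601 in the same order, and both treated groups overlapped vehicle. Of these 9 markers 6 were under a mean of 10 in 3T3-L1 and 5 in DFAT, and of 3 endothelial markers only PECAM1 in DFAT exceeded it. The part of these shifts in the proteoglycan results was not tested.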

How the data were processed

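Bulk RNA-seq of 30 libraries was used. The deposited values are signal values: gene counts that the authors divided by DESeq2 size factors, 1 table for each cell system (per the labels). The submitters' processing notes name bcl2fastq 2.19.1.403, STAR, DESeq2 and the build GRCm38; no source used here names the annotation, the counter or the build that served for the pig. Within a tolerance of 0.02, too few values were whole multiples of 1 read to recover counts for nearly all genes, so no count test was run; the same steps gave the depth estimates. Genes with a mean of at least 10 were fitted per table with limma 3.58.1 (R 4.3.3) on log2(value + 1), all 5 groups in 1 model with a variance trend, two-sided, Benjamini-Hochberg at 0.05; the fit was tested on simulated data. Tables and plots used Python 3.11.15, pandas 2.3.3, numpy 2.4.6 and matplotlib 3.10.9.

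The members, gene lists and alternatives were chosen with earlier results of these data known. Named genes were the 9 members, up to 2 rises and 2 falls per pathway list and treatment (combination, rosiglitazone) among called genes, and the 3 genes nearest to each member; Ecm2, Cenpp and Scp2 were named for their position. Groups were called not different beyond their spread where means differed by no more than the summed SDs. Same-numbered 3T3-L1 libraries had deviations from group means that correlated above 0.1 in all 30 pairs (lowest 0.106, median 0.300; median -0.142 over 60 pairs with different numbers), so numbers pair them; in DFAT this held only among magnolol, combination and rosiglitazone libraries. Replicates were not repeated libraries: chi-square per gene was at least 15.6 in 3T3-L1 and 8.04 in DFAT. Exonic lengths came from the GENCODE annotation of GRCm38, whose gene lengths equalled the deposited ones for 9 of 9 members. Mouse windows for 7 of the 9 members were found in RefSeq.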

Additional observations from a re-analysis of the deposited data

Results flagged for a closer look

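The following genes moved in opposite directions in the 2 cell systems, with every treated library on 1 side of the vehicle libraries in 3T3-L1 and on the other side in DFAT; in each case the difference between the systems was not tested, since the tables were normalized separately. With magnolol the log2 difference from vehicle was -0.70 for Omd in 3T3-L1 and 0.32 for OMD in DFAT, and -0.82 for Ogn against 0.42 for OGN. None of these 4 values passed the test in its own table in the model without the replicate block. With the block Ogn was called lower in 3T3-L1 (limma adjusted p 6.47e-04). The block also called OMD and OGN higher in DFAT (limma adjusted p 0.00173 and 1.15e-04), where numbers do not pair the vehicle libraries. With the combination Prelp changed by -0.58 and PRELP by 1.13, and with rosiglitazone by -0.71 and 0.51, and these 4 values passed the test in their own tables. Besides the species, the induction mixes listed for the systems differed. Insulin is listed for 3T3-L1 only, biotin and pantothenate for DFAT only, and dexamethasone, IBMX and serum differed. Species, cell source and medium therefore cannot be told apart.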

How the results depend on the processing

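The alternatives were a pseudocount of 8, no filter, a minimum mean of 50, no variance trend, quantile normalization, equal library totals, only the compared groups, a replicate block, limma-voom on approximate reads and leaving out each library in turn; edgeR was not run because whole reads were not recovered. Over 1977 alternative values of the single genes, 1896 stayed on the same side of the threshold, 50 lost a call, 31 gained one and 0 reversed a call. The same direction was not required of the 1896. Among them were 86 sign changes, out of 1484 alternatives of values that were not called. The counts of members called changed by more than 1.5 times as follows.

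In 3T3-L1, the replicate block gave 1 member for dicoumarol, 2 for magnolol and 2 for the combination against dicoumarol, in place of 0; quantile normalization gave 1 for magnolol (Ogn). Leaving out 1 library gave 0 to 1 for magnolol (1 without magnolol replicate 2) and 2 to 2 for the combination, in place of 4. Without a variance trend the combination gave 2. In DFAT, dicoumarol gave 1 member, DCN, with no filter and with no variance trend, and 1 to 3 when a library was left out, in place of 4. DFAT numbers do not pair the vehicle and dicoumarol libraries; with the block there, 5 members were called for the combination against dicoumarol in place of 3, and 1 (ASPN) for the interaction in place of 0. Block counts for DFAT dicoumarol, magnolol, the combination and rosiglitazone were 5, 7, 7 and 6; the members added were FMOD for dicoumarol and OMD and OGN for magnolol and the combination. The block changed no other count of members by more than 1.5 times. Of all genes, it called 79, 780, 2124 and 7827 in place of 0, 193, 821 and 6312 for these treatments in 3T3-L1, and 670, 1360, 2643 and 2368 in place of 288, 626, 1508 and 1604 in DFAT.

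Equal library totals moved the split of all calls from 438 higher and 188 lower to 313 and 2263 for magnolol in DFAT, from 906 and 602 to 540 and 3993 for the combination there, from 135 and 153 to 87 and 219 for DFAT dicoumarol, and from 3190 and 3122 to 2611 and 3865 for rosiglitazone in 3T3-L1; no member's called direction changed. Depth limits Lum, Fmod, Omd and Podn in 3T3-L1, whose means were 105, 30.1, 45.2 and 27.2 normalized counts.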
